A study of Homo sapiens with 9 samples.

Results

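MGAT3, SHISA2 and LSP1 are the 3 genes with the largest rises in MOLM13 cells that carried the weaker of 2 short hairpin RNAs (shRNAs) against DDX41. They were chosen from 30017 genes in the count table, of which 12712, these 3 included, held enough counts to be tested. The choice rested on the comparison of Sh-DDX41_2 with sh-Control. A gene had to be higher with Sh-DDX41_2 at an adjusted p under 0.05. Its library-scaled read counts (CPM, scaled to the library total) also had to show no overlap between the groups. It further had to reach a mean of at least 5 CPM with Sh-DDX41_2. Of the tested genes, 9.66% met all of these conditions (1228), and the 3 largest log2 fold changes were then taken. The values of that comparison are therefore given as a description, and the question asked here is whether the stronger hairpin, Sh-DDX41_1, shared the change.

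MOLM13 cells are a human line derived from acute myeloid leukemia cells of monocytic type, and DDX41 encodes a DEAD-box RNA helicase. Every group carried a pLKO-GFP lentivirus, with a control hairpin (sh-Control) or 1 of 2 hairpins against DDX41 (Sh-DDX41_1 and Sh-DDX41_2), and GFP-positive cells were sorted on day 4 after transduction for RNA-sequencing. Each group had 3 libraries, labelled A, B and D. The labels do not say that these came from separate cultures, so p-values measure only the spread between these libraries. Each hairpin is a single sequence in a single cell line, so an effect of lower DDX41 and any other effect of a hairpin cannot be told apart.

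The libraries held from 16385238 to 20510032 counts. DDX41 was at 113 to 117 CPM with sh-Control, at 9.95 to 12.9 CPM with Sh-DDX41_1 and at 38.9 to 42.5 CPM with Sh-DDX41_2, a loss of 89.8% and 64.8% of the control mean. Replicates correlated at 0.990 or more (Pearson's r of log2 CPM across genes). All 10 genes of a myeloid marker list were detected in every library, among them SPI1 at 236 to 269 CPM and FLT3 at 362 to 486 CPM, whereas MS4A1 (B cells) and HBB (erythroid cells) had no count. Of the 12 markers listed for other cell types, CD4 and PECAM1, which monocytic cells also express, held most of the counts. The summed level of the myeloid list was 2613 to 2778 CPM with sh-Control, 2676 to 2814 CPM with Sh-DDX41_1 and 3519 to 3589 CPM with Sh-DDX41_2. With Sh-DDX41_2, 4 of the 10 were called higher and 0 lower, where 11.6% and 13.4% of all genes were, and with Sh-DDX41_1 3 were higher and 1 lower, where 23.7% and 24.1% were. Most of the summed increase was LYZ (lysozyme), at 931 ± 54.9 CPM (SD, n = 3), 870 ± 40.0 CPM and 1818 ± 20.6 CPM. The summed level of the other markers was 392 to 424, 409 to 424 and 440 to 458 CPM. The part of these shifts in the levels of MGAT3, SHISA2 and LSP1 was not tested. In bulk samples, more cells that express a gene and more RNA of it per cell cannot be told apart.

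The 3 genes act in different compartments. MGAT3 encodes the Golgi enzyme N-acetylglucosaminyltransferase III, which adds a bisecting N-acetylglucosamine to the core of N-glycans. That residue limits further branching of the sugar chain. SHISA2 encodes a transmembrane protein of the endoplasmic reticulum, in a family known for holding back immature Frizzled and fibroblast growth factor (FGF) receptors, so that less Wnt and FGF receptor reaches the surface. LSP1 (lymphocyte-specific protein 1) encodes an actin-binding phosphoprotein of leukocytes that is a substrate of protein kinase C and of MAPKAPK2, the kinase downstream of p38, and that takes part in leukocyte migration.

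MGAT3 (ENSG00000128268.11; GRCh38, chr22:39457344-39492194, plus strand) was low in 6 libraries and higher in 3. It had 17, 11 and 14 reads in sh-Control A, B and D, which is 0.944, 0.631 and 0.737 CPM. It had 12, 15 and 22 reads in the Sh-DDX41_1 libraries, or 0.723, 0.898 and 1.33 CPM. The Sh-DDX41_2 libraries held 104, 108 and 78 reads, or 5.62, 5.36 and 4.73 CPM. The lowest Sh-DDX41_2 library thus stood above every other library, while the sh-Control and Sh-DDX41_1 libraries overlapped. Against sh-Control the choice required this, and 21.1% of all genes were higher without overlap in that comparison. The mean with Sh-DDX41_2, 5.23 ± 0.458 CPM, was just above the 5 CPM that the choice required.

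The log2 fold change of MGAT3 with Sh-DDX41_2 against sh-Control was 2.75 (SE 0.242). With Sh-DDX41_1 it was 0.35 (SE 0.310), and it did not pass the quasi-likelihood test of edgeR (adjusted p 0.372). The 95% interval of that change ran from 0.806-fold to 2.01-fold, so a rise up to that size was not excluded at this depth. The spread of MGAT3 between replicates, a coefficient of variation (CV) of 20.6% in sh-Control and 32.0% with Sh-DDX41_1, was near the 26.7% and 24.7% that counting error alone gives at these read numbers. Without Sh-DDX41_1 replicate D the log2 fold change was 0.08 (adjusted p 0.866).

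SHISA2 (ENSG00000180730.4; GRCh38, chr13:26044597-26051031, minus strand) was higher with both hairpins, in unequal amounts. It was at 26.5, 27.4 and 24.4 CPM in sh-Control A, B and D and at 45.8, 39.0 and 35.6 CPM in the Sh-DDX41_1 libraries. It reached 160, 157 and 139 CPM in the Sh-DDX41_2 libraries. None of the 3 groups overlapped, and between sh-Control and Sh-DDX41_1 26.5% of all genes were higher in that way. For Sh-DDX41_2 against sh-Control the choice required it. The mean was 26.1 ± 1.51 CPM (SD, n = 3) with sh-Control, 40.1 ± 5.20 CPM with Sh-DDX41_1 and 152 ± 11.2 CPM with Sh-DDX41_2.

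SHISA2 rose with Sh-DDX41_1 by a log2 fold change of 0.62 (SE 0.0953; edgeR quasi-likelihood adjusted p 8.78e-05), or 1.54-fold with a 95% interval of 1.34 to 1.77. In the same test 47.8% of all genes passed, 23.7% higher and 24.1% lower, and 10.02% of genes had a larger rise than SHISA2. The sh-Control libraries entered the choice of the 3 genes, so this test is independent of the choice only in its Sh-DDX41_1 libraries. With Sh-DDX41_2 the log2 fold change was 2.54 (SE 0.0934). An exact permutation test (two-sided) on its CPM with Sh-DDX41_1 gave p 0.1, the smallest value that 3 against 3 libraries allow.

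Of the 3 genes, SHISA2 had an entry in the table of RefSeq promoters, and its 250 bases before the annotated start are shown because its level differed between all 3 groups. They lie at chr13:26052017-26052266 (GRCh38.p14, minus strand, written from the most upstream base). The RefSeq start is 985 bp upstream of the start in GENCODE release 29, so the window lies outside the GENCODE gene. Capitals mark the matches to 10 short motifs that were searched on both strands.
SHISA2 promoter: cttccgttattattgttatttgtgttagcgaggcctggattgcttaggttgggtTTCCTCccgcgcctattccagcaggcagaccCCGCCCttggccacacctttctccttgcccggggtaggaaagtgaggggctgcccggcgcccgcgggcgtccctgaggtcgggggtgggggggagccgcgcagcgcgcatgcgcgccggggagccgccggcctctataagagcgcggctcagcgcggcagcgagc
Both matches were on the reverse strand. One was GAGGAA, an ETS core as bound by PU.1, at 196 bases before the start, and it occurs in 23.6% of 35116 RefSeq promoter windows of this length. The other was the GC box GGGCGG, at 165 bases before the start, found in 42.6% of windows. The other motifs had no exact match in this window. These were the NF-kB core GGGNNTTCC, the AP-1 site TGANTCA, the C/EBP site TTGCNNAA, the E-box CACGTG, the ATF4 composite site TGATGNAAN, the TCF/LEF site CTTTGA, the TATA box TATAAA and the interferon regulatory factor repeat, each found in 3.02% to 11.2% of windows. Near matches, such as the TATAAG that the window holds close to the start, were not counted. The window was 67.6% G and C and held 26 CpG dinucleotides, against a median of 58% G and C over all windows.

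LSP1 (ENSG00000130592.15; GRCh38, chr11:1852970-1892267, plus strand) varied more between the replicates of sh-Control and of Sh-DDX41_1, relative to counting error, than MGAT3 or SHISA2 did. It was at 26.6, 16.5 and 21.4 CPM in sh-Control A, B and D, at 44.4, 26.0 and 46.5 CPM in the Sh-DDX41_1 libraries and at 102, 109 and 110 CPM in the Sh-DDX41_2 libraries. Every Sh-DDX41_2 library was above every other library, as the choice required against sh-Control. Replicate B was the lowest of its group for sh-Control and for Sh-DDX41_1, and Sh-DDX41_1 B lay just under sh-Control A, so these groups overlapped. The CV was 23.7% in sh-Control and 28.9% with Sh-DDX41_1, against 5.06% and 3.93% from counting error alone. With Sh-DDX41_2 it was 4.06%, against 2.26%, and there SHISA2 varied more (7.33%, against 1.89%).

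LSP1 rose with Sh-DDX41_1 by a log2 fold change of 0.86 (SE 0.182; edgeR quasi-likelihood adjusted p 0.00132), which is 1.81-fold with a 95% interval of 1.38 to 2.37. That rise was exceeded by 5.49% of genes. As for SHISA2, the sh-Control libraries of this test also entered the choice. Low values in them would raise the change with either hairpin. Within a replicate letter the ratio was 1.67 for A, 1.58 for B and 2.17 for D. An exact permutation test (two-sided) on its CPM, which does not borrow information across genes, gave p 0.2. With Sh-DDX41_2 the log2 fold change against sh-Control was 2.31 (SE 0.178).

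**Figure D1:**
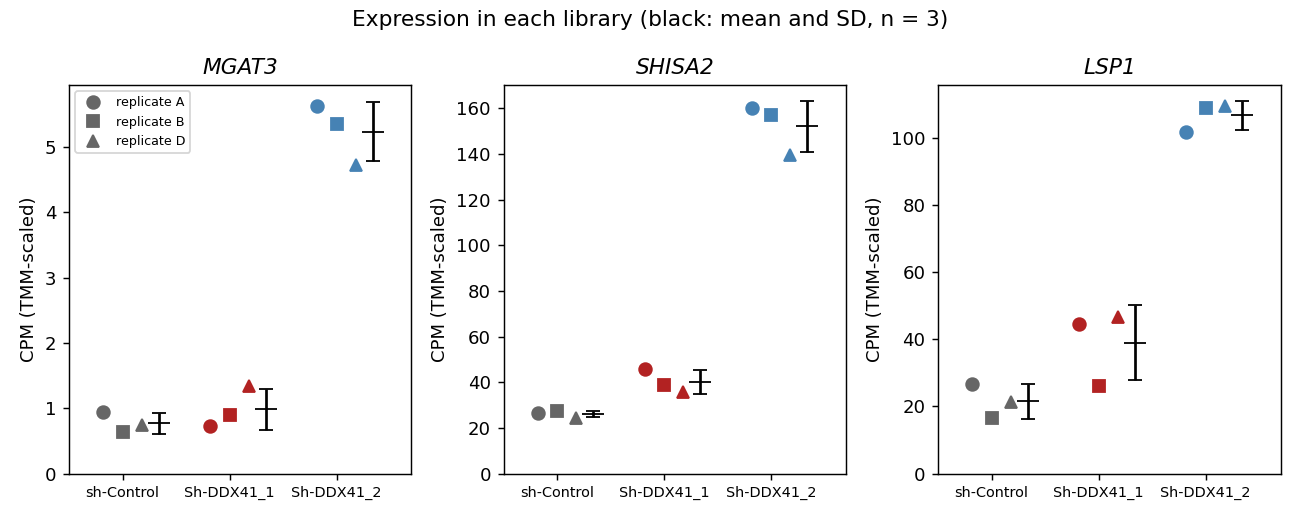
CPM (TMM-scaled, linear axes from 0) of MGAT3, SHISA2 and LSP1 in each of the 9 libraries by group, with the marker shape giving the replicate letter and black bars the mean and SD of 3 libraries. The Sh-DDX41_2 libraries stand above all others in each panel, as the choice required against sh-Control. Sh-DDX41_1 overlaps sh-Control for MGAT3 and LSP1 but not for SHISA2.

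Set side by side, the level with the weaker hairpin was above that with the stronger one for each gene, without overlap, as it was for 28.5% of all genes. The log2 difference, Sh-DDX41_1 minus Sh-DDX41_2, was −2.40 (SE 0.236, 95% interval −2.91 to −1.90) for MGAT3, −1.92 (SE 0.0903, interval −2.11 to −1.73) for SHISA2 and −1.45 (SE 0.170, interval −1.81 to −1.09) for LSP1. No test is given for these differences because the Sh-DDX41_2 libraries chose the genes. The mean with Sh-DDX41_1 was 18.8% of the mean with Sh-DDX41_2 for MGAT3, 26.4% for SHISA2 and 36.6% for LSP1. DDX41 itself had the reverse order of the hairpins, being lower with Sh-DDX41_1. Per kilobase of exon in GENCODE release 29, the level with Sh-DDX41_2 was 53.2 ± 3.90 CPM per kb for SHISA2, 19.7 ± 0.802 for LSP1 and 0.959 ± 0.0840 for MGAT3, and the same order held in sh-Control at 9.13 ± 0.526, 3.98 ± 0.944 and 0.141 ± 0.0292.

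By the size of the change alone, MGAT3, SHISA2 and LSP1 ranked 7, 9 and 15 among the 12712 genes tested with Sh-DDX41_2. The 3 largest rises that met the other conditions but stayed under 5 CPM were SPINK2 (a serine protease inhibitor), FAM65B (an inhibitor of the GTPase RhoA) and SLAMF7 (a leukocyte surface receptor). Their means with Sh-DDX41_2 were 1.25, 1.30 and 1.08 CPM, and their log2 fold changes 3.67, 3.48 and 3.43. They held 1 to 4 reads in the sh-Control libraries and 1 to 7 in the Sh-DDX41_1 libraries, against 12 to 29 with Sh-DDX41_2, so they were kept by the filter only through Sh-DDX41_2 and are read no further with Sh-DDX41_1. Just below LSP1 in rank, at or above 5 CPM, came HLA-DRA, the alpha chain of an MHC class II molecule (1.98), ZEB1, a zinc finger transcription factor (1.92), and MPEG1, a pore-forming protein of macrophages (1.87).

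These next genes showed both patterns with the stronger hairpin. ZEB1 was at 3.43 ± 0.544 CPM with sh-Control, 4.00 ± 0.1996 CPM with Sh-DDX41_1 and 13.0 ± 0.641 CPM with Sh-DDX41_2, and its change with Sh-DDX41_1 was not called (0.22, adjusted p 0.264 in edgeR). HLA-DRA and MPEG1 changed with Sh-DDX41_1 by 1.91 and 1.88, close to their values with Sh-DDX41_2. SHISA2 and LSP1 lay between these patterns, and MGAT3 lay beside ZEB1.

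**Figure D2:**
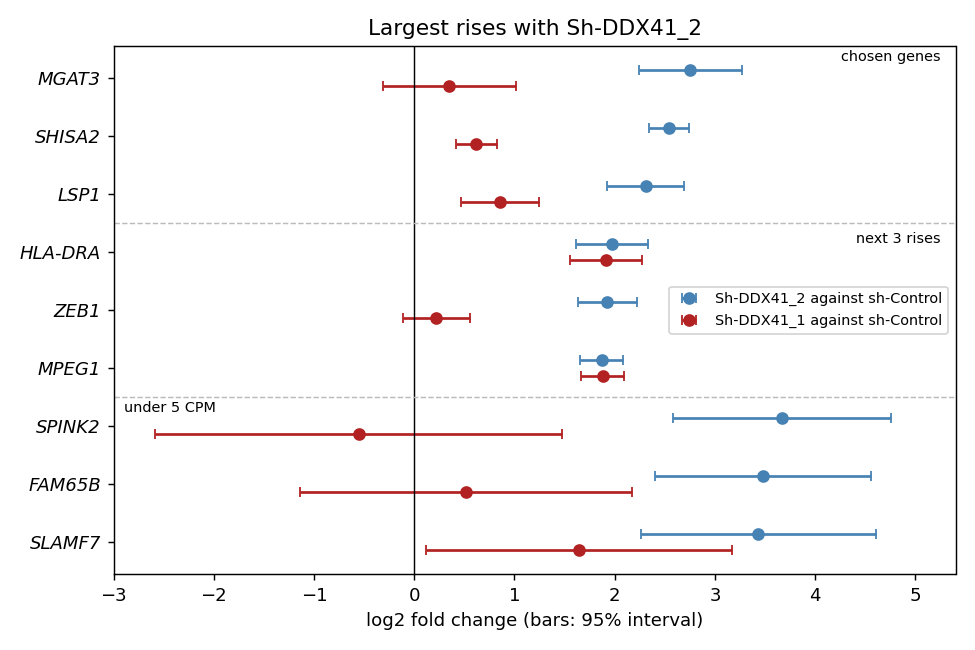
Log2 fold changes against sh-Control, with 95% intervals, of the 3 chosen genes, of the next 3 rises at or above 5 CPM and of the 3 largest rises under 5 CPM (blue Sh-DDX41_2, red Sh-DDX41_1, sharing the sh-Control libraries). The points for Sh-DDX41_1 lie at 0.35, 0.62 and 0.86 for MGAT3, SHISA2 and LSP1, whereas HLA-DRA and MPEG1 have both points near 1.9.

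To find genes with a like profile, each gene's log2 CPM was centred on its sh-Control mean, and the root mean square (RMS) difference from each of the 3 genes was taken over the 9 libraries. Among 9789 candidates with at least 5 CPM with Sh-DDX41_2, the closest to MGAT3 were CCDC149 (RMS difference 0.499), ZEB1 (0.514) and NOG, which encodes the secreted BMP antagonist noggin (0.578). The closest to SHISA2 were ZEB1 (0.458), ITGB7, an integrin beta chain of leukocytes (0.476), and CCDC149 (0.49994). The closest to LSP1 were ITGB7 (0.427), CCDC149 (0.445) and NOG (0.472). The differences between the 3 chosen genes were 0.347 for SHISA2 and LSP1, 0.358 for MGAT3 and SHISA2 and 0.445 for MGAT3 and LSP1, a closeness that their shared choice by the size of the rise helps to fix.

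ITGB7 had the pattern of SHISA2 in its means, at 14.7 ± 0.157 CPM with sh-Control, 23.7 ± 2.37 CPM with Sh-DDX41_1 and 49.3 ± 4.35 CPM with Sh-DDX41_2. NOG was at 4.37 ± 0.309, 6.35 ± 0.234 and 14.5 ± 1.19 CPM in the same order. CCDC149 was at 1.68 ± 0.258, 2.19 ± 0.467 and 6.19 ± 0.188 CPM. With Sh-DDX41_1, ITGB7 (0.69, adjusted p 4.15e-05) and NOG (0.54, adjusted p 0.00380) rose in the edgeR test, and CCDC149 did not pass it (0.38, adjusted p 0.171). That none of these genes reached the size of the change of the 3 chosen genes with Sh-DDX41_2 follows from the choice by size.

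**Figure D3:**
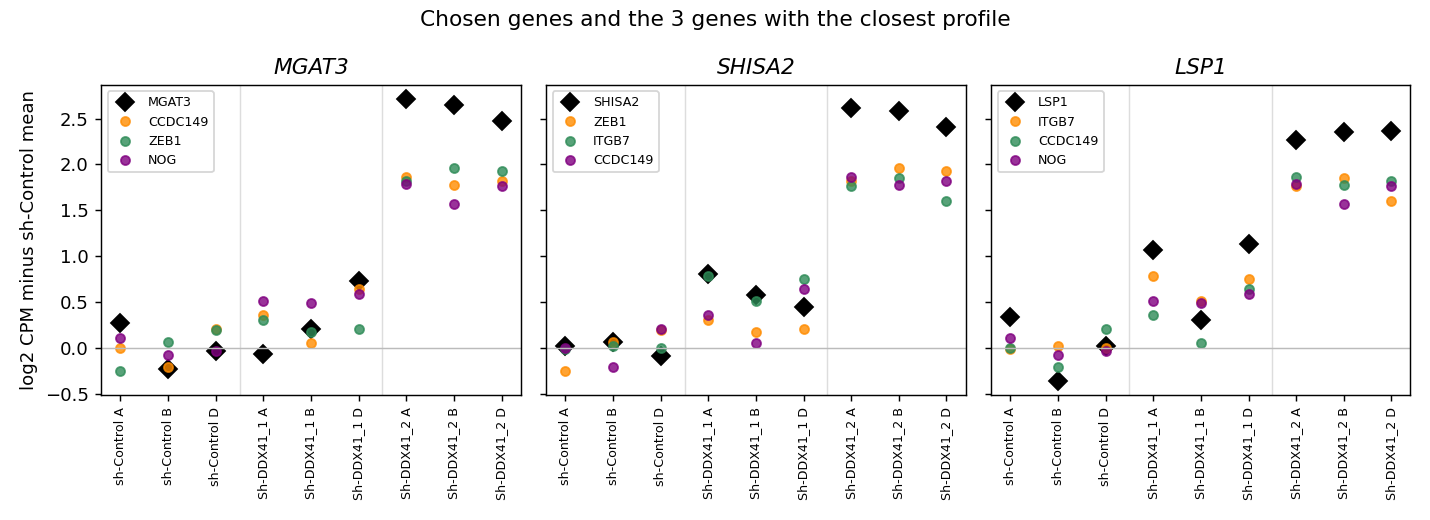
Log2 CPM minus the sh-Control mean in each of the 9 libraries for MGAT3, SHISA2 and LSP1 (black diamonds) and the 3 genes with the smallest RMS difference from each (coloured points). The nearest genes follow the order of the groups, with Sh-DDX41_2 highest, and lie at 1.57 to 1.96 with Sh-DDX41_2. The chosen genes lie at 2.26 to 2.71 there, an order that follows from their choice by size.

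The genes next to each locus were then examined, taking from RefSeq the 3 nearest on each side that were in the count table. Of these 18 genes, 13 were tested. With Sh-DDX41_2, 3 were higher and 1 lower, where 25.0% of all genes passed, 11.6% higher and 13.4% lower, and the median log2 fold change was 0.00 against −0.01 over all genes. With Sh-DDX41_1, 4 were higher and 1 lower, where 47.8% of all genes passed (23.7% higher and 24.1% lower), and the median was 0.14 against 0.01. The higher genes include WASF3, which the filter kept only through the Sh-DDX41_1 libraries. The 4 became 2 without sh-Control replicate A or D or Sh-DDX41_1 replicate A. Under the alternatives other than leaving out 1 library, the number higher ran from 2 to 6.

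Around MGAT3, no gene was called higher with Sh-DDX41_2. TAB1, 19880 bp away at lower coordinates, and MIEF1, 7906 bp away at higher coordinates, had log2 fold changes with Sh-DDX41_2 of 0.16 (adjusted p 0.0957 in edgeR) and −0.12 (adjusted p 0.229). ATF4, which encodes a transcription factor of the amino acid response and lies 28365 bp from MGAT3, was lower with Sh-DDX41_2 (−0.26, adjusted p 0.0121), a call lost without Sh-DDX41_2 replicate B (adjusted p 0.0624) or D (0.0554). SYNGR1 and LOC100506472 passed the test with neither hairpin (edgeR adjusted p from 0.139 to 0.596). With Sh-DDX41_1, TAB1 rose (0.29, adjusted p 0.00231), and RPS19BP1 was called (0.30, adjusted p 0.0248) but not when only the 6 libraries compared were fitted (0.0540), without sh-Control replicate B (0.113) or Sh-DDX41_1 replicate D (0.0878).

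Beside SHISA2, 1 gene was called higher with the same hairpins. ATP8A2, which encodes a phospholipid-transporting ATPase, ends 18746 bp from SHISA2 and is read from the opposite strand. It was at 0.4996, 0.745 and 0.369 CPM in sh-Control A, B and D, at 1.33, 0.898 and 0.971 CPM in the Sh-DDX41_1 libraries and at 2.11, 2.53 and 2.73 CPM in the Sh-DDX41_2 libraries. The 3 groups did not overlap, at 7 to 51 reads a library (26.5% and 21.1% of all genes were higher without overlap with Sh-DDX41_1 and Sh-DDX41_2). ATP8A2 rose with Sh-DDX41_2 by 2.18 (SE 0.301, adjusted p 1.12e-04 in the edgeR test). With Sh-DDX41_1 the change was 0.99 (adjusted p 0.0277), a call lost without sh-Control replicate A (0.0701), sh-Control replicate D (0.112) or Sh-DDX41_1 replicate A (0.113).

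The other genes near SHISA2 did not follow it. RNF6, 80099 bp away on the other side, was at 0.00 with Sh-DDX41_2 (adjusted p 0.982) and at −0.21 with Sh-DDX41_1 (adjusted p 0.0109, and 0.0774 under upper quartile scaling). CDK8 and MTMR6 were not called with either hairpin (edgeR adjusted p from 0.0650 to 0.980). WASF3, an actin regulator, had at most 19 reads in a library and was kept by the filter only through the Sh-DDX41_1 libraries. It was at 0.555 ± 0.133 CPM with sh-Control, 1.04 ± 0.0872 CPM with Sh-DDX41_1 and 0.396 ± 0.0441 CPM with Sh-DDX41_2 (−0.46, edgeR adjusted p 0.408). Its call with Sh-DDX41_1 (0.91, edgeR adjusted p 0.0297) is therefore not read as a rise. That call was lost in 7 of 17 alternatives, among them the fits without sh-Control replicate A (0.0642) or D (0.121) and without Sh-DDX41_1 replicate A (0.0512), B (0.0878) or D (0.0619).

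Of the 6 genes next to LSP1, 2 were tested, and both were higher with Sh-DDX41_2. TNNI2, a troponin subunit of fast skeletal muscle that ends 11406 bp upstream of LSP1, was at 1.67, 1.20 and 0.790 CPM in sh-Control A, B and D and at 1.39, 1.20 and 0.971 CPM with Sh-DDX41_1. It was at 3.94, 2.73 and 2.30 CPM with Sh-DDX41_2, above every other library. TNNI2 rose with Sh-DDX41_2 by 1.30 (SE 0.288, adjusted p 0.00438 in edgeR) and was at −0.04 with Sh-DDX41_1 (adjusted p 0.940).

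MRPL23, a mitochondrial ribosomal protein gene 55069 bp downstream of LSP1, varied widely between replicates. It was at 40.7, 73.7 and 36.3 CPM in the Sh-DDX41_2 libraries against 25.3, 36.2 and 23.3 CPM in sh-Control, so that the lowest Sh-DDX41_2 library was level with the highest sh-Control library. Its call with Sh-DDX41_2 (0.84, adjusted p 0.0327) was lost without Sh-DDX41_2 replicate B (0.45, adjusted p 0.240), without sh-Control replicate A (0.108) or D (0.104), and in the DESeq2 Wald test (0.117). With Sh-DDX41_1 MRPL23 was at 0.07 (adjusted p 0.848). The other 4 neighbours of LSP1, SYT8, MIR4298, LINC01150 and TNNT3, had at most 2 reads in any library.

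**Figure D4:**
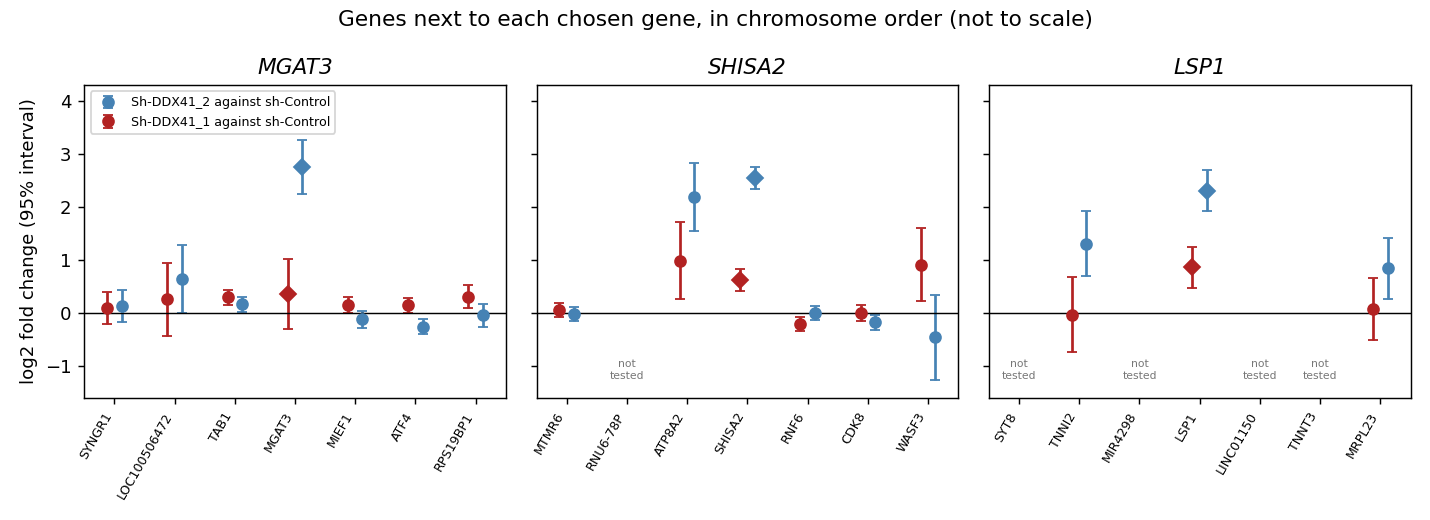
Log2 fold changes against sh-Control, with 95% intervals, of MGAT3, SHISA2 and LSP1 (diamonds) and of the 3 genes on each side (circles), in chromosome order and not to scale (blue Sh-DDX41_2, red Sh-DDX41_1). ATP8A2 beside SHISA2, at 2.18, and TNNI2 beside LSP1, at 1.30, are the neighbours with the largest values with Sh-DDX41_2, while those of MGAT3 lie between −0.26 and 0.64.

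For MGAT3, genes of N-glycan processing in the Golgi, transporters included, were compared next. Of 27 tested genes of N-glycan processing in the Golgi, 3 were higher and 5 lower with Sh-DDX41_2 (median log2 fold change 0.00 against −0.01 over all genes), where 25.0% of genes passed. The 5 became 2 without sh-Control replicate B or Sh-DDX41_2 replicate B or D, 3 without sh-Control replicate D and 1 without Sh-DDX41_2 replicate A. With Sh-DDX41_1, 10 were higher and 7 lower (median −0.11 against 0.01), where 47.8% passed. With Sh-DDX41_2 the called genes with the smallest adjusted p were MGAT4B, which starts a further branch of the glycan (0.55, adjusted p 3.68e-05), GNPTAB, which tags lysosomal enzymes (0.46, adjusted p 4.33e-04), and the galactosyltransferase gene B4GALT5 (0.38, adjusted p 0.00240), all higher. MGAT1, which starts the first branch, was at 0.01 (adjusted p 0.928), and MGAT5 at −0.06 (adjusted p 0.747).

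With Sh-DDX41_1 the leading N-glycan genes were other ones apart from B4GALT5 (0.68, adjusted p 4.95e-06). MGAT4B was also called higher with Sh-DDX41_1 (0.25, edgeR adjusted p 0.00655), a call kept in all 18 alternatives. GNPTAB was not called with it (0.13, edgeR adjusted p 0.178). SLC35A3, a Golgi transporter of the UDP-N-acetylglucosamine that MGAT enzymes use, fell by 1.24 on the log2 scale (adjusted p 8.29e-08), from 27.02 ± 1.33 to 11.4 ± 0.959 CPM. It was at 28.8 ± 1.32 CPM with Sh-DDX41_2 (0.09, adjusted p 0.466). SLC35C1, the GDP-fucose transporter, rose by 0.58 with Sh-DDX41_1 (adjusted p 1.03e-04).

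For SHISA2, its own family and receptors of Wnt and FGF signalling were listed together. Of the 28 genes, 14 were tested. With Sh-DDX41_2, 1 was higher and 2 lower (median −0.11), or 21.4% against 25.0% of all genes, and with Sh-DDX41_1, 5 were higher and 4 lower (median −0.02), or 64.3% against 47.8%. SHISA7 was at 4.54 ± 0.835 CPM with sh-Control, 10.9 ± 2.43 CPM with Sh-DDX41_1 and 5.08 ± 0.329 CPM with Sh-DDX41_2, so that it rose with the stronger hairpin (1.26, adjusted p 3.43e-05 in edgeR) and was not called with the weaker one (0.17, adjusted p 0.556). SHISA5 rose with Sh-DDX41_1 (0.33, adjusted p 0.00116) and was at 0.16 with Sh-DDX41_2 (adjusted p 0.115).

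Among the receptors, FZD2 rose (0.72, adjusted p 1.89e-04) and FZD5 fell (−0.61, adjusted p 5.32e-04) with Sh-DDX41_1, both being Frizzled receptors for Wnt ligands. With Sh-DDX41_2, RYK, a Wnt co-receptor, fell from 26.9 ± 0.691 to 19.7 ± 0.815 CPM (−0.45, adjusted p 7.39e-04). FGFRL1, an FGF receptor without a kinase domain, was called with Sh-DDX41_2 (−0.39, adjusted p 0.0310) but not without sh-Control replicate A (−0.18, adjusted p 0.132) or without any 1 of the Sh-DDX41_2 libraries (0.0701 to 0.0995). FGFRL1 also fell with Sh-DDX41_1 (−0.62, edgeR adjusted p 9.72e-04), a call kept in all 18 alternatives. FZD6, at 0.575 ± 0.247 CPM in sh-Control, rose with Sh-DDX41_1 (1.37, adjusted p 0.009995). It was called with Sh-DDX41_2 (1.17, adjusted p 0.0424), a call lost in 8 of 17 alternatives. Leaving out sh-Control A or D, Sh-DDX41_1 A or B, or Sh-DDX41_2 A or D was enough to lose it, with adjusted p from 0.05001 to 0.158.

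Of 16 tested genes that Wnt or FGF signalling is known to drive, 1 was higher and 4 lower with Sh-DDX41_2 (median −0.23), and 4 were higher and 2 lower with Sh-DDX41_1 (median −0.03). The shares called were 31.3% and 37.5%, against 25.0% and 47.8% of all genes. Leaving out Sh-DDX41_2 replicate A made the 4 lower genes 2, and leaving out sh-Control replicate B or Sh-DDX41_1 replicate B made the 2 lower genes 1. The 1 gene higher with Sh-DDX41_2 became 0 without sh-Control replicate B or Sh-DDX41_2 replicate D and 2 without Sh-DDX41_2 replicate B. MYC and SPRY1, a feedback inhibitor of FGF signalling, went opposite ways with the hairpins. MYC was at 421 ± 18.4 CPM with sh-Control, 594 ± 46.2 CPM with Sh-DDX41_1 (0.50, adjusted p 1.11e-04 in edgeR) and 276 ± 26.3 CPM with Sh-DDX41_2 (−0.61, adjusted p 6.19e-05). SPRY1 was at 3.77 ± 0.490, 6.38 ± 0.919 and 2.16 ± 0.653 CPM (0.76, adjusted p 0.00452, and −0.82, adjusted p 0.0126). The call with Sh-DDX41_2 was lost without Sh-DDX41_2 replicate A (0.0610) or B (0.0660). DUSP5, a phosphatase of ERK, fell with Sh-DDX41_2 (−0.66, adjusted p 0.00640), and ETV4, an ETS factor, fell with Sh-DDX41_1 (−1.10, adjusted p 6.35e-07). ETV4 was also called lower with Sh-DDX41_2 (−0.34, edgeR adjusted p 0.0170), a call lost in 3 of 18 alternatives.

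For LSP1, 37 genes of the leukocyte actin cytoskeleton were tested. With Sh-DDX41_2, 9 were higher and 0 lower, with a median of 0.16 against −0.01 over all genes. The share called was 24.3%, near the 25.0% over all genes, where 11.6% were called higher and 13.4% lower. No gene of the list was called lower with Sh-DDX41_2 in any of 18 alternative fits, while the number higher ran from 6 to 19, with 16 when only the 6 libraries compared were fitted and 19 without Sh-DDX41_1 replicate D, a library outside this comparison that enters the shared estimate of the spread. With Sh-DDX41_1, 6 were higher and 11 lower (median −0.10), or 45.9% against 47.8% of all genes (23.7% higher and 24.1% lower), and upper quartile scaling made 10 higher.

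The leading actin genes with Sh-DDX41_2 were MYO1G, a myosin of blood cells, from 94.6 ± 9.83 to 160 ± 7.64 CPM (0.76, adjusted p 3.52e-05 in edgeR), ARPC3, a subunit of the actin-nucleating Arp2/3 complex (0.58, adjusted p 5.37e-05), and GSN, which encodes the actin-severing protein gelsolin (0.69, adjusted p 1.84e-04). These changes were smaller than the 2.31 of LSP1, which follows from its choice by the size of the rise. With Sh-DDX41_1, ARPC3 rose by about as much (0.61, adjusted p 9.51e-06), while EZR (ezrin, −0.61, adjusted p 2.36e-06) and VIM (vimentin, −0.55, adjusted p 1.05e-04) fell. MYO1G (0.34, edgeR adjusted p 0.00677) and GSN (0.33, edgeR adjusted p 0.0148) were called higher with Sh-DDX41_1 too. The GSN call was lost without sh-Control replicate B (adjusted p 0.0754). EZR and VIM were at −0.02 and 0.12 with Sh-DDX41_2 and were not called (adjusted p 0.866 and 0.343).

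The kinases that act on LSP1 were in a list of 13 genes of the p38 and MAPKAPK2 pathway and protein kinase C. With Sh-DDX41_2, 2 were higher and 4 lower (median 0.08), or 46.2% against 25.0% of all genes, and with Sh-DDX41_1, 3 were higher and 2 lower (median 0.01), or 38.5% against 47.8%. MAPKAPK2 itself rose with Sh-DDX41_2, from 155 ± 3.61 to 188 ± 1.39 CPM (0.27, adjusted p 0.00356 in edgeR), and was not called with Sh-DDX41_1 (0.02, adjusted p 0.772). MAPKAPK3, a close relative of MAPKAPK2, was at 130 ± 11.6 CPM with sh-Control, 164 ± 14.6 CPM with Sh-DDX41_1 (0.33, adjusted p 0.00259 in edgeR) and 75.1 ± 0.765 CPM with Sh-DDX41_2 (−0.79, adjusted p 6.55e-06). HSPB1, a small heat shock protein that the same kinases phosphorylate, fell with Sh-DDX41_2 (−0.41, adjusted p 0.00101), as did PRKCD (−0.40, adjusted p 0.00116). HSPB1 also fell with Sh-DDX41_1 (−0.27, edgeR adjusted p 0.00645), whereas PRKCD was not called with it (−0.03, edgeR adjusted p 0.761). PRKCB fell with Sh-DDX41_1 (−0.69, adjusted p 1.10e-05), and KSR1, a scaffold of the ERK pathway, rose (0.63, adjusted p 7.73e-04). KSR1 was called lower with Sh-DDX41_2 (−0.38, edgeR adjusted p 0.0433), a call lost in 10 of 18 alternatives. MAPK14, the main p38 kinase, was called with neither hairpin (edgeR adjusted p 0.807 and 0.483).

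**Figure D5:**
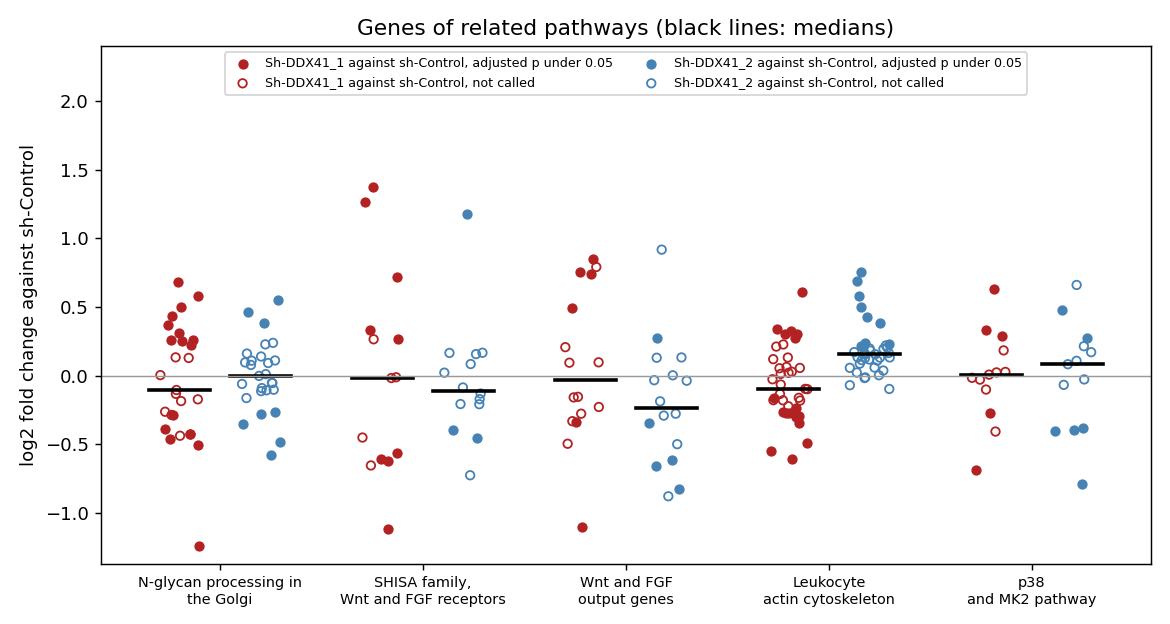
Log2 fold changes against sh-Control of the tested genes in 5 lists related to MGAT3, SHISA2 and LSP1, with filled points for an adjusted p under 0.05, open points for others and black lines for medians (red Sh-DDX41_1, blue Sh-DDX41_2). With Sh-DDX41_2 no listed gene exceeds 1.2, and the median of the actin list is 0.16. The 3 chosen genes, at 2.31 to 2.75, are left out of the lists and were chosen by the size of this rise.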

How the data were processed

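The authors sequenced poly(A) RNA of sorted MOLM13 cells with 75 bp paired-end reads. The submitters' processing notes name FastQC 0.11.7, HISAT2 2.0.5, featureCounts 1.5.2 and the builds hg38 and mm10; their settings and the annotation are not given in the sources used here. The values deposited by the authors are unnormalized counts of reads for each gene, 1 column a library. The labels name a stranded kit and the methods of the study a related kit without that property. MGAT3 overlaps 1 annotated gene on the opposite strand and LSP1 overlaps 4 genes on either strand, so reads there may not be separable. SHISA2 overlaps 0.

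Groups came from the labels. The filterByExpr function of edgeR 4.0.16 (R 4.3.3, minimum count 10) left 12712 of 30017 genes, and libraries were scaled by TMM (factors 0.963 to 1.02). All libraries entered 1 quasi-likelihood fit, with group means as its coefficients. Tests were two-sided, with Benjamini-Hochberg adjustment over all genes tested within a comparison and calls under 0.05. SE is the log2 fold change divided by the square root of F, and 95% intervals use 15.0 degrees of freedom. Log2 CPM used a prior count of 2. No set test was run. The alternatives were other scalings, filters, DESeq2 1.42.0, limma 3.58.1 voom, 6 libraries, the replicate letter as a block and each library left out. Scripts were tested on simulated data. Loci are from GENCODE release 29, neighbours and promoters from RefSeq (GRCh38.p14).

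The 3 genes, the related lists and the motifs were chosen with earlier results of these data known. Besides the 3 genes, those named were DDX41, the next 3 rises, the 3 largest under the floor, the 3 closest profiles, the 3 nearest genes on each side, and in each list the 3 called genes with the smallest adjusted p for each hairpin. In the lists MGAT1, MGAT5, SHISA5, MAPK14 and MAPKAPK2 were added for their roles after their values were seen.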

Additional observations from a re-analysis of the deposited data

How the results depend on the processing

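Under all 18 alternatives the change of each gene with Sh-DDX41_1 kept its direction and its side of the threshold, with adjusted p from 0.210 to 0.866 for MGAT3, from 6.95e-09 to 6.00e-04 for SHISA2 and from 2.06e-10 to 0.00899 for LSP1. Without 1 library each time, the log2 fold changes ran from 0.08 to 0.53, from 0.52 to 0.71 and from 0.70 to 1.08. With Sh-DDX41_2 they ran from 2.64 to 2.92 for MGAT3, 2.495 to 2.60 for SHISA2 and 2.15 to 2.49 for LSP1. The number of genes called with Sh-DDX41_2, 3174, ran from 2054 (without Sh-DDX41_2 replicate B) to 4248 (without Sh-DDX41_1 replicate D), and the cause was not tested. With Sh-DDX41_1, 6078 were called, from 5368 to 6256 without 1 library and from 5404 to 6351 under the other settings, and upper quartile factors moved the share of rises from 49.5% to 61.1%. Same-letter deviations correlated at 0.0725 (A), 0.158 (B) and 0.243 (D) between sh-Control and Sh-DDX41_1, above every other-letter pair there (−0.184 to 0.0664), and at −0.0574 to 0.0225 in pairs with Sh-DDX41_2. Since not every pair passed 0.1, the letters were not taken as a pairing, and the former values are a hint from the data only. With the replicate letter as a block, LSP1 with Sh-DDX41_1 was at 0.85 (adjusted p 6.29e-05), SHISA2 at 0.62 and MGAT3 at 0.35, and 6351 and 3570 genes were called. Counts of list genes and neighbours and the called values of other named genes were varied after seeing the data. Of 74 called values, 12 lost their call under at least 1 alternative and 0 reversed. MGAT3, at 11 to 22 reads in sh-Control and Sh-DDX41_1 libraries, is limited by depth.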
